A study of Arabidopsis thaliana with 24 samples.

Results

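The 4 WT arrays taken after 2 h of high light (HL) were set directly against the 4 WT arrays taken after 2 h of darkness (D). They were chosen by their titles and make up 8 of the 24 arrays of the series. The plants were wild type (WT) Arabidopsis thaliana of the ecotype Col-0, grown on soil in 8 h days for 4.5 weeks. HL was 1000 µmol per square metre and second and D was the absence of light, and both began 2 h into the day. The control light (C) was the growth light of 120 µmol per square metre and second. Its 4 WT arrays were not part of the contrast, are given as levels and entered the tests only through the estimate of the spread. The remaining arrays are of *gnat2*, a line of the same ecotype with an insertion in the gene of the plastid acetyltransferase GNAT2, under the same lights. Each array was hybridized with the RNA of 1 biological replicate, and the study describes the harvest of rosettes from individual plants. The p-values measure the spread between samples within a group, pooled over all 24 arrays including those of C and *gnat2*. The *gnat2* groups spread less than the WT groups.

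In a leaf the light sets both the energy supply and the signals read by the photoreceptors. In bright light sugars accumulate, the light-harvesting antenna absorbs more than the carbon reactions can use, and protective proteins and pigments are made. In darkness photosynthesis stops and the kinase SnRK1, which senses a shortage of sugar phosphates, turns on genes for the breakdown of amino acids, lipids and cell components. Phytochromes and cryptochromes act in the light against COP1 and the PIF factors, which promote dark growth, whereas HY5 and its partner HYH promote light growth.

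All values are log2 values from one array per sample, with a median of 2.35 and quartiles of 1.35 and 4.79 on every array. A transcript near or below this median was not shown to lie above the background of the array, so the size of a change that ends there is uncertain. Leaf markers were high in all 8 arrays, with group means of 10.58 to 12.72 in HL and 10.83 to 12.40 in D for RBCS1A, RCA, CA1 and LHCB3. All 3 flower and all 3 seed markers averaged 1.13 to 1.47 in HL and 1.09 to 1.56 in D. Of the 3 phloem markers, SUC2 and SWEET11 were lower in HL by 0.87 and 0.79, under the limit of 1 for a call, and the summed level of the 3 was lower in every HL array, with 16.5 as the lowest, than in any D array, with a range of 18.8 to 19.8. The part of this in the sugar transport genes was not tested. Of the 3 root markers only SCR, a factor of the ground tissue, was called, with 4.97 ± 0.15 in HL and 3.89 ± 0.40 in D, and its difference of 1.08 was 0.99 and 0.96 without the first or the second D array. In whole rosettes fewer cells of a type and less RNA per cell cannot be told apart. GNAT2 averaged 5.76 ± 0.07 in HL and 5.83 ± 0.40 in D in WT, whereas its means in *gnat2* lay between 1.75 and 2.03. The mean Pearson r between arrays, across transcripts, was 0.984 within WT HL and 0.981 within WT D, and by this measure no WT array stood apart.

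Of 27826 transcripts, 2222 (7.99%) were called higher in HL and 2057 (7.39%) were called lower. A call required a difference beyond 1 in either direction on the log2 scale, the log2 FC (fold change), with an adjusted p below 0.05. Without the limit on the FC, 5317 were higher and 5168 were lower. The median log2 FC was 1.52 among the rises, -1.52 among the falls and 0.00 among all transcripts. Very large changes were more often falls, with 264 transcripts lower by more than 3 and 54 by more than 5 on the log2 scale, against 188 and 20 higher by as much. The values of the 4 HL and the 4 D arrays did not overlap in 98.2% of the called transcripts and in 32.0% of all transcripts. The shares of 7.99%, 7.39% and 32.0% among all transcripts are the background for the lists below. Of the rises, 420 had a D mean below the array median, and of the falls 433 had an HL mean below it.

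**Figure D1:**
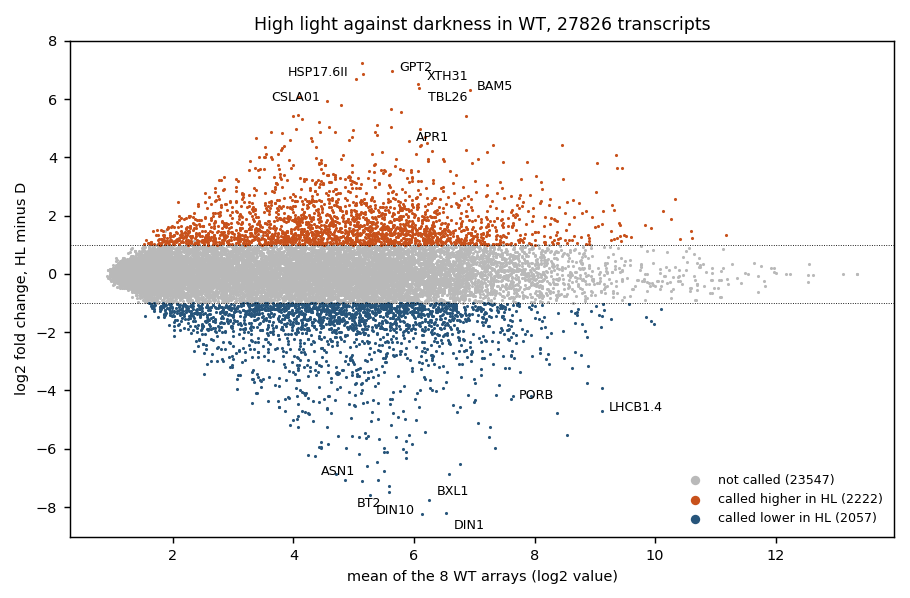
Log2 FC of HL against D in WT (vertical axis) against the mean log2 value of the 8 WT arrays (horizontal axis), 1 point per transcript, with dotted lines at a log2 FC of 1 and -1. The 2222 rises reach 7.23 and the 2057 falls reach -8.24, and the labelled falls DIN10 and DIN1 lie farthest from 0.

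Among the largest falls were genes known from dark-treated and sugar-starved leaves. DIN10, a raffinose synthase-like gene named for its induction in the dark, read 1.37, 2.11, 1.83 and 2.73 in HL, against 10.32, 10.47, 10.19 and 10.01 in D. DIN1, also known as SEN1 and used as a marker of senescence, read 2.45, 2.56, 2.2 and 2.54 in HL, against 11.04, 10.18, 10.75 and 10.53 in D. In both genes every HL array lay below 3 and every D array above 10. BXL1, a beta-xylosidase that acts on cell wall xylan, averaged 2.37 ± 0.19 in HL and 10.14 ± 0.12 in D. BT2, a BTB protein with a zinc finger, averaged 1.84 ± 0.39 in HL and 9.33 ± 0.15 in D, and its log2 FC of -7.50 ± 0.14 (SE) had the adjusted p 5.85e-22. The other 6 of the 10 largest falls were AT5G22920 (-7.59), MEE14 (-7.29), ASN1 (-7.10), AT4G27450 (-7.09), AT3G15450 (-7.07) and AT1G80440 (-6.88).

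Among the rises, the plastid glucose-6-phosphate translocator GPT2 read 9.47, 9.03, 8.93 and 9.07 in HL, against 1.95, 1.76, 2.15 and 2.72 in D. Its log2 FC was 6.98 ± 0.21 (SE), with an adjusted p of 8.31e-19. The cytosolic small heat shock protein HSP17.6II read 8.83, 7.80, 8.56 and 8.33 in HL, against 2.31, 1.25, 1.61 and 1.62 in D. Both lay below 3 in all 4 D arrays and above 7 in all 4 HL arrays. The transcript AT2G29500 had the largest rise, with 8.75 ± 0.54 in HL and 1.51 ± 0.44 in D. XTH31, which cuts and rejoins xyloglucan in the wall, was higher by 6.52, TBL26, of the wall acetylation family, by 6.38, and CSLA01, of the cellulose synthase-like family A, by 5.94. BAM5, a beta-amylase found outside the plastid, was higher by 6.31, AT5G24155 by 6.85, AT2G27420 by 6.07 and AT1G57590 by 5.80.

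The C arrays placed these genes differently. In D, C and HL, GPT2 averaged 2.15, 2.72 and 9.12, whereas XTH31 averaged 2.80, 9.0 and 9.32 and AT5G24155 averaged 1.72, 7.70 and 8.58. Among the falls, BT2 averaged 9.33 in D, 1.64 in C and 1.84 in HL, whereas BXL1 averaged 10.14, 6.12 and 2.37 in the same order. GPT2 in C thus lay near its level in D, XTH31 and BT2 in C near their levels in HL, and BXL1 in C between both.

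Dark-inducible genes and targets of SnRK1 were mostly lower in HL. Of 22 members, 16 were lower, 3 were higher and 3 were not called, with a median log2 FC of -4.35. ASN1, an asparagine synthetase that stores nitrogen in a carbon-poor amide, read 1.89, 1.47, 1.24 and 1.77 in HL, against 9.15, 8.36, 8.99 and 8.26 in D. The hexose importer STP1 read 3.99, 3.66, 2.96 and 3.40 in HL, against 10.29, 10.14, 9.82 and 9.90 in D. The trehalose phosphate synthase-like TPS8 read 1.55, 2.37, 1.83 and 2.24 in HL, against 8.45, 8.03, 8.05 and 8.19 in D. In none of the 3 did the groups overlap, and the nearest arrays lay more than 5 log2 units apart. The SnRK1 subunit AKINBETA1 was lower by 6.12, the SnRK1-regulated factor BZIP63 by 5.26 and TPS11 by 4.89. The 3 members that went the other way were TPS5, with 4.91 ± 0.23 in HL and 2.49 ± 0.17 in D, DIN9, a phosphomannose isomerase, with 4.43 ± 0.40 in HL and 2.21 ± 0.27 in D, and BZIP11, whose translation is repressed by sucrose, with 4.40 ± 0.23 in HL and 2.66 ± 0.37 in D. TPS5 and TPS8 belong to the same class of synthase-like proteins and changed in opposite directions.

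Genes of amino acid breakdown were mostly lower in HL as well. Of 12 members, 10 were lower in HL and 1 was higher, with a median of -3.0. PRODH1, which starts the oxidation of proline, read 1.32, 2.00, 2.42 and 1.97 in HL, against 8.78, 9.09, 8.25 and 7.90 in D. BCAT2, which removes the amino group of branched-chain amino acids, read 1.24, 1.47, 2.00 and 1.12 in HL, against 7.89, 7.19, 7.50 and 7.04 in D. Both were below the array median in all HL arrays but one, in which PRODH1 read 2.42, and high in all D arrays. Downstream in leucine breakdown, isovaleryl-CoA dehydrogenase IVD was lower by 2.97, the biotin subunit MCCA of methylcrotonyl-CoA carboxylase by 5.59 and its partner MCCB by 1.72. Glutamate dehydrogenase, which returns carbon from glutamate, was lower by 5.57 (GDH1) and 3.03 (GDH2), and the tyrosine breakdown enzyme HGO by 3.62. The exception was MGL, a methionine gamma-lyase, which read 6.67, 6.69, 6.17 and 6.35 in HL, against 4.87, 4.64, 4.66 and 5.18 in D.

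Of 13 autophagy genes, 5 were lower in HL and none was higher, with a median of -0.81. Without the limit on the FC, 11 were lower and none was higher, against 5168 and 5317 of 27826 transcripts. ATG8 proteins coat the growing autophagosome, and the members of this family differed widely. ATG8E read 1.80, 1.82, 1.31 and 1.37 in HL, against 6.69, 6.47, 6.37 and 6.66 in D. ATG8F read 4.98, 5.23, 4.75 and 5.11 in HL, against 8.87, 8.33, 8.37 and 8.63 in D. The HL and D arrays of both were far apart, whereas ATG8B and ATG8D had log2 FCs of 0.01 ± 0.19 and -0.16 ± 0.18 (SE) and overlapping values.

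**Figure D2:**
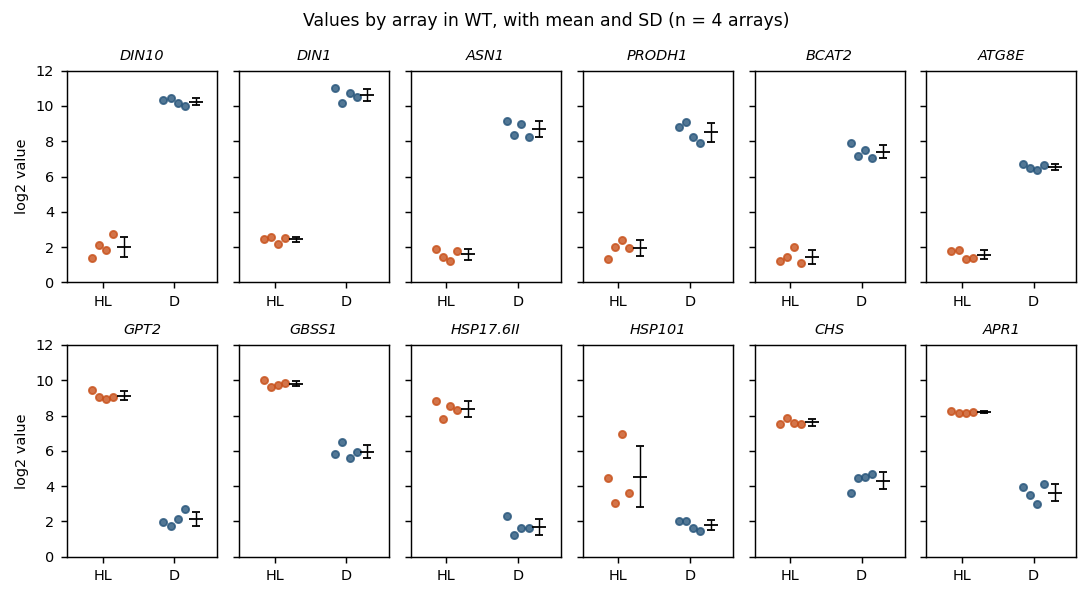
Log2 values of 12 transcripts by array, with the 4 HL arrays left of the 4 D arrays of WT, and the mean and SD beside them. The upper 6 genes lie below 3 in every HL array, the lower 6 are higher in HL, and HSP101 spreads from 3.05 to 6.96 within HL.

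In starch synthesis, 6 of 13 members were higher in HL and none was lower, with a median of 0.77, and 6 more had an adjusted p below 0.05 in this direction with an FC under the limit. GBSS1, the granule-bound synthase that makes amylose, averaged 9.80 ± 0.15 in HL and 5.96 ± 0.37 in D. APL3, a large subunit of ADP-glucose pyrophosphorylase, read 7.11, 6.96, 6.80 and 7.15 in HL, against 4.35, 4.99, 4.92 and 4.89 in D. Neither gene overlapped between the groups. The starch synthase SS2 was higher by 1.95 and the plastid phosphoglucomutase PGM1 by 1.42.

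In starch breakdown, 8 of 15 members were higher and 1 was lower, with a median of 1.05. BAM5 read 10.04, 9.82, 9.94 and 10.51 in HL, against 3.65, 3.88, 3.87 and 3.67 in D. The plastid beta-amylase BAM3, which releases maltose from starch, read 9.04, 8.93, 8.95 and 9.03 in HL, against 6.79, 7.39, 6.22 and 6.86 in D. Neither gene overlapped between the groups, and BAM3 was tight in HL and varied more in D. The cytosolic phosphorylase PHS2 was higher by 1.96, the phosphatase-like LSF1 by 1.37, the cytosolic disproportionating enzyme DPE2 by 1.31 and the glucan water dikinase SEX1 by 1.05, which was 0.97 after cyclic loess. BAM4, a plastid relative of BAM3 without catalytic activity, went the other way, with 3.96, 4.09, 4.42 and 3.85 in HL, against 6.28, 5.88, 5.77 and 5.88 in D.

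The exchange of carbon between plastid and cytosol and its export changed gene by gene. Of 14 members, 3 were higher and 2 were lower in HL, with a median of 0.07. Among all transcripts 7.99% were called higher and 7.39% lower, so the count of falls lay near the background. Beside GPT2, the phosphoenolpyruvate translocator PPT2 read 5.97, 5.82, 6.28 and 6.16 in HL, against 3.1, 4.54, 4.45 and 3.89 in D, and the sucrose phosphate synthase SPS1F was higher by 1.04, which was 0.96 and 0.97 without the third or the fourth D array. The triose phosphate translocator TPT, the main route of carbon out of the chloroplast by day, averaged 10.43 ± 0.13 in HL and 10.97 ± 0.08 in D, a difference of -0.54 ± 0.09 (SE) under the limit. The sucrose carrier SUC1 was lower, with 6.40, 6.01, 5.18 and 6.37 in HL, against 7.16, 7.69, 7.58 and 7.35 in D. SWEET12, which releases sucrose next to the phloem, averaged 1.86 ± 0.52 in HL and 3.05 ± 0.16 in D, and its log2 FC was -0.99 without the fourth HL array, against -1.19 with it.

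In the Calvin cycle, 2 of 20 members were called higher, a share near the 7.99% of all transcripts, and none was called lower, with a median of 0.38. These were RBCS1B, a small subunit of Rubisco, with 10.14, 10.24, 10.41 and 10.34 in HL, against 7.81, 8.31, 9.21 and 8.79 in D, and the aldolase FBA1, with 10.10, 9.86, 9.86 and 10.09 in HL, against 8.39, 8.51, 7.98 and 8.22 in D. The 4 HL arrays of RBCS1B agreed closely and the 4 D arrays spread over more than 1 log2 unit. Without the limit on the FC, 12 of the 20 members were higher and 2 were lower, against 5317 and 5168 of 27826 transcripts. SBPASE and GAPB, both light-activated enzymes of the cycle, had smaller differences of 0.81 ± 0.10 and 0.88 ± 0.10 (SE). Rubisco activase RCA differed by 0.33 ± 0.08 and PRK, the kinase that regenerates the CO2 acceptor, by -0.24 ± 0.13 with an adjusted p of 0.158. Of 9 photorespiration genes only GLDP1, the P-protein of glycine decarboxylase, was called, a share near the 7.99% of all transcripts called higher. GLDP1 read 11.04, 11.01, 10.94 and 11.09 in HL, against 9.70, 10.13, 9.62 and 9.78 in D. The glycolate exporter of the plastid PLGG1 followed with 0.75 ± 0.12, under the limit. RBCS genes and the members of the LHCB1 group are nearly identical in sequence, and how far the probe sets tell them apart was not tested.

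Antenna genes fell or were not called, apart from a pair that rose. Of 21 members, 6 were lower, 2 were higher and 13 were not called, with a median of -0.62. Among all transcripts 7.39% were called lower and 7.99% higher, so the count of antenna rises lay near the background. Without the limit on the FC, 16 members were lower and 3 were higher, against 5168 and 5317 of 27826 transcripts. LHCB1.4, of the major trimeric antenna of photosystem II, read 6.56, 6.72, 6.97 and 6.78 in HL, against 11.65, 11.10, 11.61 and 11.51 in D, a 26.2-fold difference. LHCB4.2, of the minor antenna CP29, read 5.53, 5.53, 5.74 and 5.99 in HL, against 8.78, 8.26, 8.55 and 8.69 in D. LHCB2.3 was lower by 1.76 and LHCB1.5 by 1.47. The groups did not overlap in any of these, and the fall was not shared by all isoforms. LHCB4.1, also CP29, had a smaller fall of -0.34 ± 0.10 (SE, adjusted p 0.00708), under the limit. LHCB4.3, the third CP29 gene, averaged 2.32 ± 0.31 in HL and 1.27 ± 0.19 in D. LHCB4.3 lay below the array median in both groups, and its log2 FC of 1.04 dropped under the limit without the third HL, the fourth HL or the fourth D array, at 0.99, 0.93 and 0.96. LHCB7, a rare antenna protein, read 6.31, 6.06, 6.10 and 6.15 in HL, against 3.46, 3.96, 3.38 and 3.68 in D. None of the 6 LHCA genes, which serve photosystem I, was called. LHCA1 to LHCA4 were lower by 0.62, 0.47, 0.60 and 0.28 and LHCA6 was higher by 0.47, each with an adjusted p below 0.05. LHCA1 lay below the array median in both groups.

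Chlorophyll synthesis had 2 of 15 members called lower, beside 7.39% of all transcripts, and 1 called higher, beside 7.99%, with a median of 0.31. These counts of calls lay near the background, and that of rises ran from 1 to 3 when single arrays were left out. Without the limit on the FC, 8 members were higher and 5 were lower, against 5317 and 5168 of 27826 transcripts. The 2 protochlorophyllide oxidoreductases of green leaves went opposite ways. PORB read 5.37, 5.6, 5.66 and 5.23 in HL, against 9.61, 9.76, 9.99 and 9.66 in D, whereas PORC read 7.89, 7.93, 7.95 and 8.26 in HL, against 6.52, 6.90, 6.63 and 6.82 in D. CAO, which makes chlorophyll b for the antenna, was lower by 1.03, and without the third or the fourth D array its log2 FC was -0.97. HEMA1, at the entry of the pathway, differed by 0.72 ± 0.12 and CHLH, of magnesium chelatase, by 0.79 ± 0.11 (SE), both under the limit.

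Of 9 photoprotection genes, 3 were higher and 1 was lower, with a median of 0.89, beside 7.99% higher and 7.39% lower among all transcripts. ELIP1, an early light-induced protein that holds free chlorophyll, read 5.73, 5.77, 6.17 and 6.0 in HL, against 1.57, 1.56, 1.85 and 1.70 in D. Its relative ELIP2 read 2.90, 5.03, 5.24 and 4.38 in HL, against 1.04, 1.22, 1.26 and 1.08 in D. Both were at the bottom of the scale in D, and ELIP2 was uneven in HL. PSBS, the sensor of excess light that starts heat dissipation, averaged 10.07 ± 0.08 in HL and 8.78 ± 0.29 in D. VDE, which makes zeaxanthin in bright light, went the other way, with 6.04 ± 0.15 in HL and 7.25 ± 0.15 in D.

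The photoreceptors themselves changed. Of 23 light signalling genes, 12 were higher and 5 were lower in HL, with a median of 1.13. PHYA, the phytochrome that accumulates in the dark, read 3.39, 3.58, 3.11 and 3.48 in HL, against 7.20, 6.63, 6.96 and 7.30 in D. PHYB, the main phytochrome of light-grown leaves, read 7.54, 7.23, 7.28 and 7.29 in HL, against 5.49, 5.36, 5.63 and 5.51 in D. These 2 phytochromes moved in opposite directions without overlap. The blue light receptors were lower, by 3.02 for CRY2, by 2.82 for CRY1 and by 1.44 for the phototropin PHOT1. HY5 read 3.35, 3.60, 4.24 and 3.43 in HL, against 1.70, 1.51, 1.57 and 1.85 in D, and HYH was higher by 4.02. The microproteins BBX31 and BBX30 had the largest rises among these 23 genes, with 5.80, 5.21, 5.95 and 5.94 in HL, against 1.1, 1.24, 1.02 and 0.82 in D for BBX31. COP1, the ubiquitin ligase that removes HY5 in the dark, was higher in HL by 1.13, and its partners SPA1 and SPA3 by 1.61 and 2.12.

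Genes of the PIF factors and of shade growth were lower in HL or not called. Of 14 members, 7 were lower and none was higher, with a median of -0.95. Without the limit on the FC, 9 were lower and 1 was higher. IAA29, an auxin repressor induced by PIFs, read 1.73, 1.18, 1.34 and 1.21 in HL, against 6.73, 5.51, 7.10 and 6.80 in D. PIF4 read 5.46, 5.16, 5.42 and 4.72 in HL, against 7.81, 7.47, 7.55 and 7.78 in D, and PIF1 and PIF5 were lower by 2.67 and 2.03. HFR1, an inhibitor of PIFs, read 3.55, 3.43, 3.32 and 1.88 in HL, against 6.48, 6.19, 6.04 and 4.88 in D. The fourth array was the lowest of each of its groups for HFR1, and the groups still did not overlap. The shade marker ATHB2 was lower by 1.34, whereas PIL1 averaged 1.85 ± 0.28 in HL and 2.49 ± 0.23 in D, under the limit. IAA17 went the other way without overlap, with 6.01 ± 0.18 in HL and 5.05 ± 0.34 in D. Its log2 FC of 0.96 (adjusted p 2.06e-05) was under the limit. It was 1.04, 1.02 and 1.08, and called, without the first HL, the second D or the fourth D array.

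**Figure D3:**
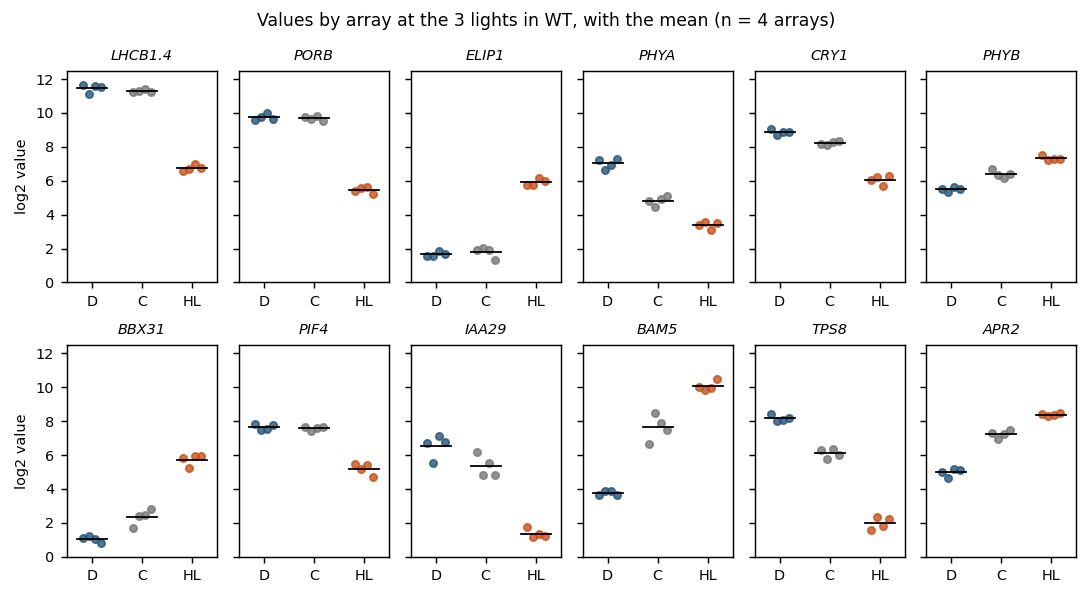
Log2 values of 12 WT transcripts by array in D, C and HL, ordered by light, with a line at each mean. LHCB1.4, PORB and PIF4 lie close together in D and C and are lower in HL, whereas TPS8 steps down and BAM5 and APR2 step up through all 3 lights.

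Over the 3 lights the genes followed several courses. LHCB1.4 averaged 11.47 in D, 11.28 in C and 6.76 in HL, PORB averaged 9.76, 9.69 and 5.47, and PIF4 averaged 7.65, 7.59 and 5.19 in that order. TPS8 averaged 8.18, 6.10 and 2.00, PHYA averaged 7.02, 4.82 and 3.39, and BAM5 averaged 3.77, 7.65 and 10.08. ELIP1 averaged 1.67, 1.79 and 5.92. No test between C and the other lights was made for these values.

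Of 15 cell wall expansion genes, 7 were lower in HL and 4 were higher, with a median of -0.61. EXPA8, an expansin that loosens walls, read 2.68, 2.29, 2.92 and 2.11 in HL, against 6.69, 6.57, 6.55 and 6.97 in D. The xyloglucan enzymes XTH4 and XTH22 were lower by 2.79 and 2.77, and XTH22, which is known to respond to touch, ran from 2.99 to 4.33 in HL and from 5.62 to 7.48 in D. Among the expansins that were higher, EXPA10 read 3.87, 3.75, 5.0 and 4.44 in HL, against 1.27, 1.35, 1.37 and 1.53 in D, and EXPA5 was higher by 1.58. Members of one enzyme family therefore stood on both sides without overlap of their groups.

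Of 18 clock genes, 4 were higher and 5 were lower in HL, beside 7.99% and 7.39% of all transcripts. The median was -0.15, and the count of falls was 3 without the third HL array. CCA1, a repressor that peaks in the morning, read 7.90, 7.84, 7.82 and 8.06 in HL, against 5.2, 5.64, 4.49 and 4.93 in D. PRR9 read 7.59, 7.43, 7.36 and 7.48 in HL, against 5.18, 4.90, 4.1 and 4.74 in D. LNK1 and RVE8, which activate evening genes together, were higher by 2.54 and 2.5. LHY, the close relative of CCA1, differed by 0.12 ± 0.17 (SE) and overlapped. PRR5 was lower by 2.33, with 3.24, 3.26, 3.97 and 3.76 in HL, against 5.45, 7.65, 5.41 and 5.04 in D, the second D array standing high. GI differed by 0.68 ± 0.16, under the limit, and TOC1 by -0.41 ± 0.21.

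In nitrogen and sulfur assimilation, 4 of 20 members were higher and 2 were lower, with a median of 0.37. Among all transcripts 7.99% were called higher and 7.39% lower, so the count of falls in this list lay near the background. All 3 APS reductases, which control the reduction of sulfate, were among the rises. APR1 read 8.27, 8.17, 8.14 and 8.19 in HL, against 3.93, 3.48, 3.00 and 4.1 in D. APR3 read 8.20, 8.11, 7.97 and 8.10 in HL, against 2.97, 5.15, 4.15 and 3.66 in D, and APR2 was higher by 3.40. The HL arrays of each lay within 0.3 log2 units, and the D arrays of APR3 were the most spread. In C, APR1 averaged 8.22, near its level in HL, whereas APR2 and APR3 averaged 7.25 and 6.83, between D and HL. Nitrite reductase NIR1 averaged 9.83 ± 0.04 in HL and 7.75 ± 0.32 in D. The nitrate reductases NIA1 and NIA2 differed by -0.78 ± 0.17 and 0.81 ± 0.10 (SE), in opposite directions and both under the limit. The nitrate transporter NRT1.1 and the glutamine synthetase GLN1.4 were lower by 1.03 and 1.05, and each fell under the limit when one of several arrays was left out, with values down to -0.95 and -0.89.

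Of 18 flavonoid genes, 9 were higher in HL, 1 was lower and 8 were not called, with a median of 1.1, and 7 of the 18 had both means below the array median. The early steps were higher. CHS, the entry enzyme, read 7.52, 7.88, 7.55 and 7.50 in HL, against 3.60, 4.45, 4.54 and 4.69 in D. F3H read 7.97, 8.25, 8.24 and 8.06 in HL, against 3.34, 3.85, 3.02 and 2.21 in D, and CHI was higher by 3.14, C4H by 3.18 and FLS1 by 2.75. The anthocyanin activator PAP1 read 6.77, 6.57, 6.48 and 6.70 in HL, against 1.78, 2.3, 1.92 and 1.80 in D. MYBL2, a repressor of anthocyanin synthesis, read 3.51, 3.63, 2.95 and 4.06 in HL, against 8.80, 8.25, 8.49 and 8.59 in D. Activator and repressor thus lay on opposite sides, each without overlap. DFR, the first late step, read 3.62, 4.92, 1.74 and 3.09 in HL, against 1.58, 2.61, 2.15 and 1.70 in D. These groups overlapped, and its adjusted p was 0.0399 and reached 0.215 without the second HL array.

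Glucosinolates are sulfur-rich defence compounds of this plant family, and 14 of 20 of their genes were higher in HL and 1 was lower, with a median of 1.78. MYB29, an activator of the aliphatic branch, read 7.26, 7.47, 7.06 and 7.35 in HL, against 3.44, 3.94, 3.47 and 4.18 in D. MYB34, an activator of the indolic branch, read 6.07, 6.72, 6.90 and 6.57 in HL, against 3.65, 3.48, 2.78 and 3.62 in D. Enzymes of both branches were higher, with 2.36 for CYP83A1, 2.07 for CYP83B1, 2.54 for UGT74B1 and 2.64 for BCAT4. MYB51, the other indolic activator, read 1.07, 1.51, 0.94 and 1.15 in HL, against 4.73, 3.88, 3.19 and 3.69 in D. MYB34 and MYB51 belong to one branch and moved in opposite directions. In C, MYB29 averaged 7.47, CYP83A1 9.59, CYP83B1 9.09, UGT74B1 6.38 and BCAT4 7.97, nearer to their HL than to their D means. MYB34 and MYB51 averaged 5.91 and 2.51 in C, between D and HL. No test against C was made.

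Of 8 small heat shock proteins, which hold unfolded proteins, 5 were higher in HL, none was lower and 3 were not called, with a median of 3.35. The count of rises was 4 without the third HL array and 8 without the second or the fourth. The third HL array was the highest for several of them. HSP23.6, of the mitochondria, read 7.35, 4.78, 8.20 and 5.76 in HL, against 1.16, 1.37, 2.07 and 1.62 in D. HSP18.2 read 4.84, 2.02, 7.52 and 1.84 in HL, against 1.48, 1.68, 1.64 and 1.09 in D, and its log2 FC of 2.58 was 1.43 with an adjusted p of 0.0937 without the third HL array. HSP21, of the chloroplast, read 2.02, 1.16, 5.86 and 1.4 in HL, against 1.05, 1.31, 1.05 and 1.09 in D. HSP21 was not called (adjusted p 0.0633) and its groups overlapped. Its log2 FC of 1.48 was 0.40 without the third HL array and 1.97 and 1.89 without the second or the fourth (adjusted p 0.0157 and 0.0238). HSP17.4, of the cytosol, was even, with 6.02, 5.55, 6.53 and 5.76 in HL, against 1.89, 1.78, 1.4 and 1.53 in D.

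Of 19 chaperones and heat shock factors, 11 were higher and none was lower, with a median of 1.56. HSP90.1 read 7.51, 6.41, 7.99 and 7.02 in HL, against 2.83, 2.82, 2.15 and 2.73 in D. The disaggregase HSP101 read 4.47, 3.05, 6.96 and 3.61 in HL, against 2.03, 2.02, 1.62 and 1.48 in D, again with its highest value in the third HL array. ROF2, a prolyl isomerase induced by heat, read 8.74, 7.75, 9.16 and 8.16 in HL, against 4.04, 4.64, 4.71 and 4.67 in D. The factor HSFA2 averaged 2.99 ± 0.72 in HL and 1.43 ± 0.31 in D. In the organelles, the disaggregases CLPB3 of the plastid and CLPB4 of the mitochondria were higher by 2.09 and 3.09 with little spread in HL. Leaf temperature is not given in the sources used here.

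Of 17 genes of the defence against reactive oxygen, 8 were higher and 2 were lower, with a median of 1.02. The count of falls lay near the 7.39% of all transcripts called lower. The plastid peroxidase GPX7 read 8.45, 8.55, 8.41 and 8.39 in HL, against 4.14, 3.12, 4.1 and 4.54 in D. The galactinol synthase GOLS1 averaged 9.02 ± 0.30 in HL and 5.10 ± 0.52 in D. Cytosolic ascorbate peroxidase APX1 was higher by 2.70, the stromal form SAPX by 2.18 and the alternative oxidase AOX1A by 3.61. The ascorbate peroxidase APX2 averaged 1.49 ± 0.18 in HL and 1.22 ± 0.10 in D, both below the array median, and was not called. The 3 catalases split. CAT2, the photorespiratory catalase, averaged 9.37 ± 0.09 in HL and 8.33 ± 0.17 in D, whereas CAT3 averaged 8.20 ± 0.30 in HL and 10.02 ± 0.15 in D and CAT1 4.33 ± 0.32 in HL and 6.84 ± 0.26 in D. The log2 FC of CAT2 was 1.04, and 0.97 without the third D array.

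Factors of the fast stress response varied within the groups. Of 13 members, 1 was higher and 2 were lower, counts near the background, with a median of 0.07. ZAT10, a zinc finger factor, read 8.09, 7.41, 5.24 and 3.62 in HL, against 6.74, 5.85, 2.92 and 3.94 in D. The ZAT10 difference of 1.23 ± 1.03 (SE) was not called, with overlapping groups (adjusted p 0.398), but was called with the replicate number as a block (adjusted p 0.000634). RRTF1 read 3.85, 3.56, 1.29 and 1.26 in HL, against 1.66, 1.21, 0.95 and 1.05 in D, and its adjusted p of 0.0287 became 0.162 without the first and 0.137 without the second HL array. ERF104 read 4.11, 3.74, 1.39 and 1.61 in HL, against 6.90, 6.14, 5.24 and 5.71 in D. In these 3 genes the first and the second array were higher than the third and the fourth, in HL as well as in D. The same order of arrays was seen in WRKY33, CBF2 and ZAT12. WRKY33 averaged 6.48 ± 0.62 in HL and 7.86 ± 0.39 in D with overlapping values, CBF2 differed by 0.10 ± 0.55 and ZAT12 by 0.07 ± 0.34.

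Ribosomes and DNA are made anew in growing cells. Of 12 ribosome assembly genes, 10 were higher and none was lower, with a median of 1.65. FIB2, a fibrillarin that methylates ribosomal RNA, read 6.32, 6.09, 6.59 and 6.56 in HL, against 2.70, 3.59, 2.83 and 2.85 in D. Nucleolin NUC1 averaged 10.26 ± 0.09 in HL and 8.58 ± 0.23 in D, NOP56 was higher by 2.37 and the pseudouridine synthase NAP57 by 2.31. All 12 had an adjusted p under 0.05 in this direction. Of 16 genes of DNA replication and the cell cycle, 8 were higher and none was lower, with a median of 0.97. MCM3, of the replicative helicase, read 4.63, 5.16, 5.26 and 5.30 in HL, against 2.87, 3.66, 3.78 and 3.13 in D, MCM5 was higher by 1.51 and the ribonucleotide reductase RNR1 by 1.53. In C, MCM3, MCM5 and RNR1 averaged 5.24, 5.01 and 6.76, near their HL means of 5.09, 5.27 and 6.94. FIB2, NUC1, NOP56 and NAP57 averaged 4.08, 8.91, 6.17 and 5.15 in C, nearer to D. No test against C was made.

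Of 19 jasmonate genes, 9 were higher and 1 was lower, with a median of 0.43. In synthesis, LOX2 was higher by 1.23, AOS was higher by 1.47 and OPR3 by 1.88. The cyclase AOC1 read 2.87, 4.08, 4.02 and 3.43 in HL, against 5.16, 5.13, 4.40 and 4.47 in D, and its log2 FC of -1.19 was -0.94 without the first HL array. The master factor MYC2 was higher by 2.24, and the repressor JAZ5 read 4.83, 4.79, 4.61 and 4.76 in HL, against 2.90, 2.66, 1.57 and 2.80 in D. The storage protein VSP1, a classic target, read 7.68, 7.17, 6.91 and 7.52 in HL, against 2.95, 2.08, 1.90 and 3.59 in D. Of the called members AOC1 was the only one lower in HL. In C, LOX2 and AOS averaged 11.48 and 10.15, near their HL means of 11.22 and 10.01. OPR3, MYC2 and VSP1 averaged 5.35, 4.69 and 5.74 in C, between D and HL. JAZ5 and AOC1, at 2.3 and 5.32 in C, lay nearer to D. No test against C was made.

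**Figure D4:**
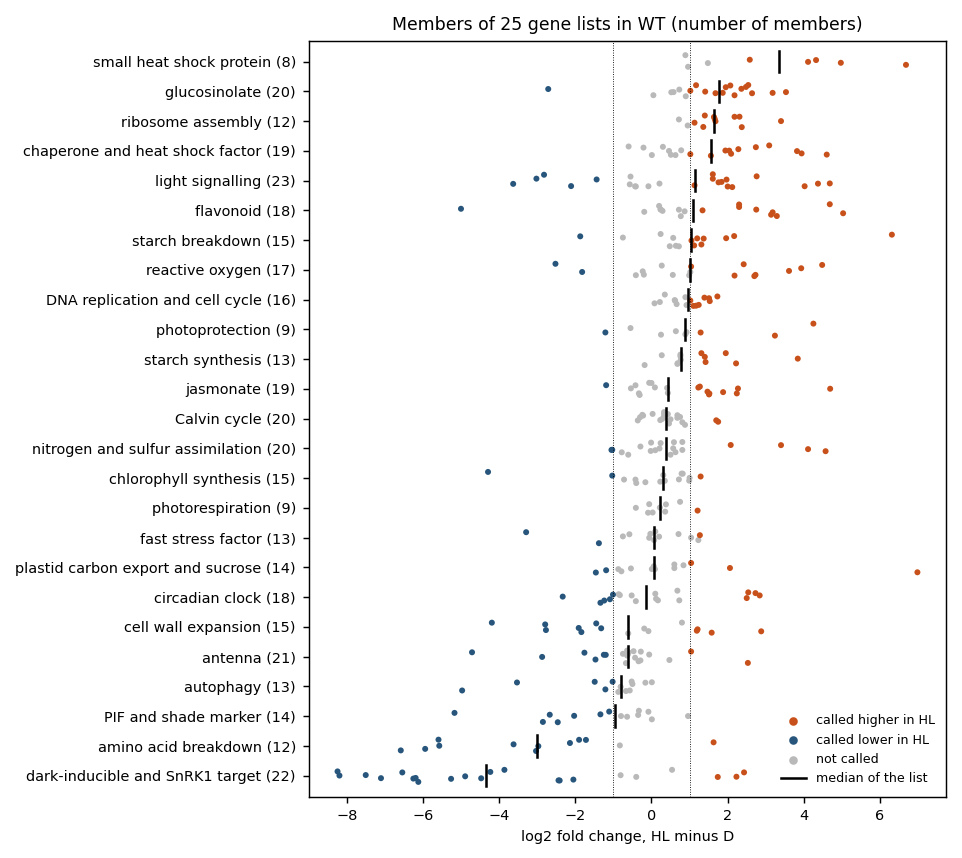
Log2 FC of HL against D in WT (horizontal axis) for the members of 25 gene lists (rows, ordered by median), 1 point per gene, with the list median as a black line and dotted lines at 1 and -1. The median of the dark-inducible list is -4.35 and that of the small heat shock proteins 3.35, against 0.00 for all transcripts.

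The same contrast in *gnat2* rests on 8 other arrays. In WT 4279 transcripts were called and in *gnat2* 5062, with 2658 higher (9.55%) and 2404 lower (8.64%) in HL. Both genotypes shared 3842 calls in the same direction, 89.8% of those of WT and 75.9% of those of *gnat2*, and 0 calls went opposite ways. Of the 4279 WT calls, 4277 had the same sign in *gnat2*. Pearson's r between the log2 FCs of WT and *gnat2* was 0.953 and Spearman's rho 0.824 across the 27826 transcripts, which share the array design and the normalization and are no replicates. DIN10 was lower by 8.24 in WT and by 8.19 in *gnat2*, GPT2 was higher by 6.98 in WT and by 7.52 in *gnat2*, and LHCB1.4 was lower by 4.71 in WT and by 4.59 in *gnat2*. The list medians were -4.35 in WT and -4.83 in *gnat2* for the dark-inducible genes, 3.35 in WT and 3.05 in *gnat2* for the small heat shock proteins, and -0.95 in WT and -0.57 in *gnat2* for the PIF and shade genes. Whether these medians differ between the genotypes was not tested. Spread was larger in WT, with a median SD per transcript of 0.209 in WT HL and 0.235 in WT D, against 0.148 in *gnat2* HL and 0.169 in *gnat2* D.

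The difference between the genotypes was called for 32 transcripts (0.115%), and 2518 had an unadjusted p under 0.05. Of the 32, 30 had a smaller absolute log2 FC in WT than in *gnat2*. In 3 of the 32 the signs were opposite, with 0.39 in WT and -0.69 in *gnat2* for AT4G32680, -0.11 and 0.70 for AT5G52930, and -0.23 and 0.79 for AT1G75335. AT4G12735 had the largest difference, with a log2 FC of 0.64 in WT and 3.55 in *gnat2*, which differed by -2.90 ± 0.42 (SE, adjusted p 0.00529). AT5G16110 was lower by 1.44 in WT and by 2.66 in *gnat2*, AT1G52855 was higher by 1.15 in WT and by 2.77 in *gnat2*, and AT1G75580 by 1.08 in WT and by 2.56 in *gnat2*. ChlAKR, a plastid aldo-keto reductase that detoxifies reactive carbonyls, was higher by 1.01 in WT and by 2.48 in *gnat2*. The WT call of ChlAKR was lost without the fourth HL or the fourth D array (0.83 and 0.96), and that of AT1G75580 without the third HL or the fourth D array (0.87 and 0.98). The glycosyltransferase UGT84A2, which makes sinapoyl glucose, was higher by 3.50 in WT and by 4.89 in *gnat2*. In 18 of the 32 at least 1 of the 4 group means lay below the array median, which limits the size of these differences.

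**Figure D5:**
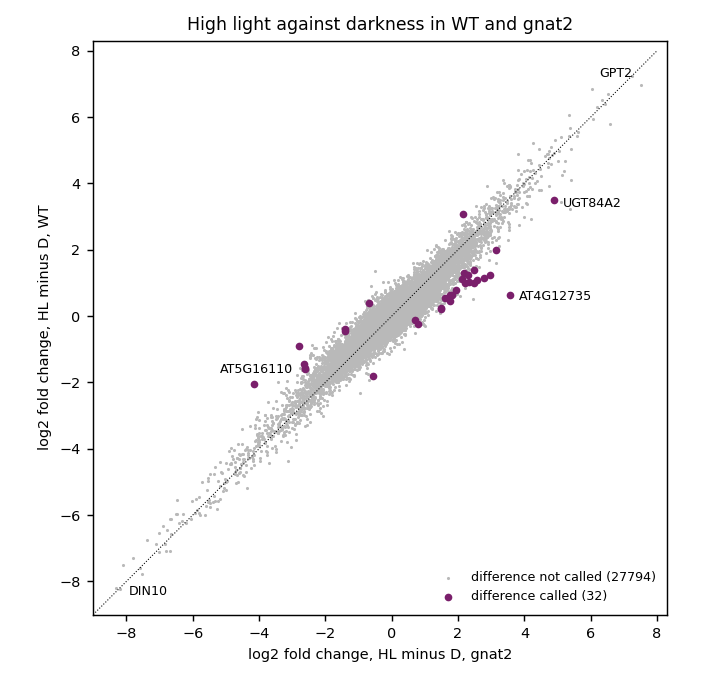
Log2 FC of HL against D in WT (vertical axis) and in gnat2 (horizontal axis) for 27826 transcripts, with equal change on the dotted line. The 32 transcripts with a called difference are dark, and 30 of them lie closer to 0 on the WT axis.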

How the data were processed

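Total RNA of 24 samples was hybridized to Affymetrix Arabidopsis gene arrays, 1 array per sample. The deposited log2 values were made by the authors with a custom chip definition file (version 22) based on TAIR gene definitions, RMA background correction and quantile normalization, so that all arrays share one distribution and a change in total mRNA cannot be seen. The genome build is not given in the sources used here. No value was missing, and the number of arrays limits the precision.

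One model of 6 group means over all 24 arrays was used with limma 3.58.1 (R 4.3.3), with moderated spread (18 residual and 6.05 prior degrees of freedom), since the methods name a one-way ANOVA across groups. The contrasts were WT HL against WT D, the same in *gnat2*, and their difference. Tests were two-sided and adjusted by Benjamini-Hochberg over 27826 transcripts. A call in a light contrast needed a log2 FC beyond 1 or -1 with an adjusted p below 0.05, and one in the genotype difference only the p. Values are given as mean ± SD of 4 arrays unless marked SE. On simulated data with 200 changed among 27826 transcripts, 100% of the changes of 1.5 and 3 on the log2 scale were recovered for WT HL against D with 1 false call, and 89% and 100% for the difference between the genotypes with 11 false calls.

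The members, gene lists and tests were chosen with earlier results of these data known. Of 409 listed loci in 25 lists, 395 were used, 13 without a name in the RefSeq table (TAIR10.1) or the paper were left out and 1 was not in the table. Genes named are the 10 largest rises and falls among called transcripts with separate groups and a higher mean above the median, the fixed anchors and the 2 largest changes of each list, up to 2 called members against its majority, GNAT2, PRK and the 5 smallest p-values of the genotype difference (117 in all). All other genes named, 81 of them followed under every alternative, were chosen after their values were seen. RefSeq lists 27241 of the transcripts. No sequence was printed, since no sequence table was used here.

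The alternatives tried were a block for the replicate number, fits with fewer arrays, an unmoderated ANOVA, an intensity trend, array weights, filters on dim transcripts, centring, cyclic loess, other limits, no adjustment and leaving out each array.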

Additional observations from a re-analysis of the deposited data

Results flagged for a closer look

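In 19 of 396 groups of 4 WT arrays (198 named genes in HL and in D, 4.80%), 1 array stood apart, in that its gap to the nearest of the other 3 exceeded the 95% limit of Dixon for 4 values. Chance gives about 1 in 20 groups, and no array held more than 4 of the 19. In HL the values were 8.01 for AT1G57590 and 7.88 for CHS in the second array, 3.85 for DIN9 in the first, 7.77 for XTH32 in the third, and 8.26 for PORC, 1.22 for APX2, 1.88 for HFR1 and 8.71 for DPE2 in the fourth. In D they were 1.26 for AT2G27420, 4.35 for APL3 and 4.04 for ROF2 in the first array, 1.31 for HSP21, 3.59 for FIB2 and 7.65 for PRR5 in the second, 2.15 for HSP90.1, 7.28 for WRKY33 and 5.82 for VTC2 in the third, and 9.10 for BT2 and 6.45 for GDH2 in the fourth. For DPE2 the other 3 arrays read 8.83 to 8.84, a small gap in log2 units. The largest gap was PRR5, where the other 3 read 5.04 to 5.45.

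The difference between the log2 FCs of WT and *gnat2* was tested directly and called for 32 transcripts. It was -2.90 for AT4G12735, 1.23 for AT5G16110, -1.62 for AT1G52855, -1.48 for AT1G75580 and -1.47 for ChlAKR, and these are the 5 with the smallest p. Named after their values were seen, UGT84A2 (-1.39), SQD1 (-1.10) of sulfolipid synthesis, the repressor MYB4 (-1.23) and AT2G31790 (0.94) were also called. AT2G28720 (-1.23) was lower in HL by 1.80 in WT and by 0.57 in *gnat2*, and AT2G31790 was higher by 3.09 in WT and by 2.15 in *gnat2*, the 2 of the 32 with the larger change in WT. MYB4, AT2G28720, AT2G31790, SQD1 and UGT84A2 each lost the call under the unmoderated ANOVA and when some of the single arrays were left out.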

How the results depend on the processing

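Of 3748 log2 FCs of WT HL against D for the 198 named genes under the alternatives, 3686 kept their direction and their side of the limits. The counts of 2222 rises and 2057 falls became 5317 and 5168 without a limit on the FC and 1136 and 1050 with a limit of 1.5, and stayed within 1.5 times otherwise. Leaving out 1 array gave 2163 to 2272 rises and 2000 to 2126 falls, and 3994 to 4123 of the 4279 calls were kept. The 32 differences between the genotypes became 20 under the unmoderated ANOVA and 2518 without adjustment, and 15 to 52 when 1 array was left out, with 52 without the second WT D array and 21, 17, 15 and 18 without *gnat2* HL replicate 1, *gnat2* HL replicate 3, *gnat2* D replicate 3 and *gnat2* D replicate 4. Sign changes were confined to 3 named genes that were not called: without 1 array ZAT12 ranged from -0.11 to 0.33, CBF2 from -0.45 to 0.56 and GNAT2 from -0.24 to 0.048, and with array weights CBF2 was -0.0048. RRTF1 and DFR lost their calls in 9 and 8 alternatives. HSP21 was called with the block and with the intensity trend (adjusted p 0.0391 and 0.0424).

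Same-numbered WT arrays deviated together weakly, with correlations of 0.0223 to 0.0776, against -0.0635 to 0.0289 for arrays of unlike number. For 3 of the 4 HL arrays the correlation was highest with their own number. The main model did not pair the arrays by number, and the weak correlations do not show that they are unpaired. With the replicate number as a block there were 2231 rises, 2058 falls and 41 differences between the genotypes, and ZAT10 was called (adjusted p 0.000634). The cause of these changes was not tested. The number of arrays limits all values, and those below the array median are limited by the background.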

Other observations

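Gene families outside the lists were chosen after the values were seen, and their counts stand beside 7.99% higher and 7.39% lower among all transcripts. In ascorbate synthesis, 2 of 4 VTC genes were called and both were higher in HL. VTC2, which makes the committed step, read 10.69, 10.57, 10.73 and 10.65 in HL, against 6.40, 6.38, 5.82 and 6.42 in D, and its isoform VTC5 was higher by 2.57. Of 46 glutathione transferases, 7 were higher and 1 was lower, with ERD9 higher by 4.21, GSTU5 by 3.87 and GSTF2 lower by 2.66. Of 31 B-box factors, 7 were higher and 7 were lower, and the ends lay far apart, with BBX18 at 7.74, 7.94, 7.62 and 7.88 in HL, against 2.99, 3.2, 3.1 and 2.37 in D, and BBX14 at 2.48, 2.08, 2.68 and 2.79 in HL, against 8.49, 8.54, 8.4 and 8.55 in D. BBX27 was lower by 4.58 and BBX32 higher by 2.76.

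Of 72 WRKY factors none was higher and 10 were lower in HL, with WRKY26 lower by 2.96 and WRKY47 by 2.42. Of 46 bZIP factors 3 were higher and 8 were lower, with a family median of -0.06 and BZIP61 lower by 5.56. Of 33 xyloglucan endotransglucosylases 2 were higher, XTH31 and XTH32 (2.62), and 11 were lower, with XTH25 lower by 4.07. Of 17 beta-galactosidases 2 were higher and 5 were lower. BGAL1 averaged 5.78 in HL and 11.31 in D, BGAL4 was lower by 5.98, and BGAL3 was higher by 2.58. Of 222 long noncoding RNAs, 6 were higher and 28 were lower, against 2179 higher and 1998 lower of 26474 protein-coding genes. Of 92 genes of the mitochondrial genome 5 were higher, a smaller share than among all transcripts, and none was lower, and of 14 of the plastid genome 0 were called.

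Because all arrays share one sorted set of values, the most abundant transcripts can move only by trading ranks. RBCS1A read 12.72 in all 4 HL arrays and 12.40 in all 4 D arrays, which were rank 4 and rank 7 of its arrays, and LHCA4 read 12.40 at rank 7 in all HL arrays and 12.53 to 12.72 at ranks 4 to 6 in D. The log2 FC of 0.33 for RBCS1A is therefore a step between ranks.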
